A study of Drosophila melanogaster with 2 samples.

Results

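Rab genes encode small GTPases that give each membrane compartment of the cell its identity. They were taken here as the protein-coding genes whose symbol starts with Rab and a digit, or with RabX, which gave 36 of 13981 genes. The symbols also took 3 genes that encode regulators of a Rab rather than a Rab (Rab3-GEF, Rab3-GAP and Rab3GAP1), so 33 of the 36 are Rab GTPases. The data are chromatin immunoprecipitation with sequencing of Hnf4 from 2 biological replicates of Drosophila melanogaster, which form 1 group with no contrast between conditions. The animals were whole larvae in the third instar, at the wandering stage, with both sexes pooled, from a transgenic line that stably carries Hnf4 joined to green fluorescent protein at its C terminus. The labels' description names an antibody against the fluorescent protein and their antibody field names Hnf4, so what was precipitated beside the fusion is not settled. No tissue was separated, so a region cannot be assigned to the cells it came from. A single control served both replicates, per the deposited file descriptions, and what chromatin it held was not given there.

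A Rab switches between a GTP-bound form on membranes and a GDP-bound form that the GDP dissociation inhibitor keeps in the cytosol. Guanine nucleotide exchange factors load GTP, GTPase-activating proteins trigger its hydrolysis, and the GTP-bound Rab recruits effectors such as tethers, motors and lipid kinases. Hnf4 is a nuclear receptor that acts in lipid and sugar metabolism in the fly and in liver in vertebrates.

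The sequences under the summits of 9 Rab regions are printed to show a motif that is described further on. They were chosen for it and do not stand for all 15 Rab genes with a region, of which 8 have the motif or its centre at the strongest region. The first 5 below hold the DNA replication-related element (DRE), a palindrome bound by the factor DREF that is common at promoters of broadly expressed fly genes. Rab21 and Rab11 hold the shorter stretch at its centre. Rab5 and Rab1 are given as regions with neither within 100 bp of the summit, though the promoters of Rab5 hold the shorter stretch elsewhere. Sequences are from the plus strand of RefSeq's Release 6 assembly (dm6), up to 60 bp on either side of the summit with untranslated bases left out. Capitals mark the DRE.
Rab30, chr2L:7032607-7032712: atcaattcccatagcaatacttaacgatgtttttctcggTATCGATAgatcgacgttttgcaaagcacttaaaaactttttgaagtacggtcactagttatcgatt
Rab8, chr3L:19871079-19871138: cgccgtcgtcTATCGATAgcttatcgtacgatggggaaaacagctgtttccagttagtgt
Rab7, chr3R:23992931-23993007: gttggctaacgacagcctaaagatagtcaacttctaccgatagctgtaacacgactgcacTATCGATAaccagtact
Rab40, chrX:12463113-12463199: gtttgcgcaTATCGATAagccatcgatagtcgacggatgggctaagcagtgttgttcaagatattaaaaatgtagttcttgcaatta
Rab35, chrX:20159876-20159996: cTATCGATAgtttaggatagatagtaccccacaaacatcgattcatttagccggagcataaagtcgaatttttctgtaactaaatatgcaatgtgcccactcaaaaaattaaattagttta
Rab21, chrX:23013410-23013487: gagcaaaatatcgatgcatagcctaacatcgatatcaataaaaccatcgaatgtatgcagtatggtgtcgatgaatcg
Rab11, chr3R:21111327-21111407: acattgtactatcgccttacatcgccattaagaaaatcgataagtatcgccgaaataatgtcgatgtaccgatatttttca
Rab5, chr2L:2363049-2363169: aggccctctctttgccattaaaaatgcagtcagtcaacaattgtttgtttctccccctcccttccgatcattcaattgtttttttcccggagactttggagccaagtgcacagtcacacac
Rab1, chr3R:21269061-21269170: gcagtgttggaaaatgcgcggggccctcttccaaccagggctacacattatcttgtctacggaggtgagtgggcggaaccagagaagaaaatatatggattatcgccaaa

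Of the Rab genes with an Hnf4 region, 5 were Rabs of the endoplasmic reticulum, Golgi and secretion and 5 were Rabs of early and recycling endosomes. None of the 3 Rabs of regulated secretion and 1 of 10 RabX and Rab9-like genes had one, but these groups are small, were chosen with earlier results known and were not tested, and 4 of the 10 have repeated sequence where a region may not be seen. A gene was counted as having a region when a summit lay within 1000 bp of one of its transcription start sites (TSSs). In the authors' optimal list, made from the replicate and pooled lists per the deposited file descriptions, 15 of the 36 genes had such a region (41.7%, or 45.5% of the 33 GTPases), against 22.9% of all protein-coding genes. That list was the same as the 5817 strongest regions of the authors' relaxed list of the pooled replicates, which runs on into weak regions and background. In the pooled relaxed list 19 of the 36 genes had a region (52.8%), against 41.5% of all genes. In the relaxed list of replicate 1 the count was 20 of 36 (55.6%), against 44.7% of all genes, and in that of replicate 2 also 20 of 36, against 45.0% of all genes. Of the 19 genes in the pooled list, 15 (78.9%) had an optimal region, against 55.3% of all genes with a pooled region. The margin over all genes, in percentage points, was thus wider in the optimal list than in the relaxed lists. It was narrower again in stricter sets. Optimal regions among the strongest of both replicates gave 33.3% against 17.9%, and with an overlap of at least 50% of the peak 27.8% against 16.4%. The 50% of optimal peaks with the highest signal value gave 27.8% against 14.8%. These counts are descriptions of 1 set of larvae, and no test was made of the list.

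**Figure D1:**
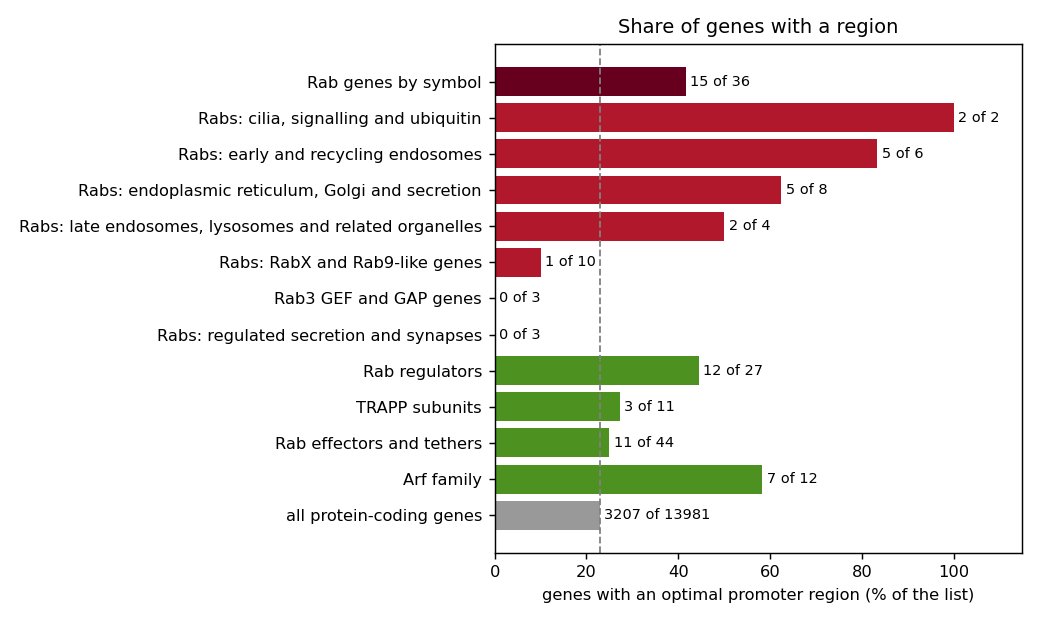
Share of genes with an optimal promoter region, as a percentage of each list, with the numbers of genes printed beside the bars. Rab genes and their role groups are in red shades, other gene lists in green, all protein-coding genes in grey and as the dashed line at 22.9%. The groups of early and recycling endosomes (5 of 6) and of the endoplasmic reticulum, Golgi and secretion (5 of 8) lie above the line and the RabX and Rab9-like group (1 of 10) lies below it.

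Each region carries a signal value, the authors' own measure of enrichment, which is used here to rank and describe regions within 1 list. The signal values of replicate 1, replicate 2 and the pooled list are on scales of their own, so the replicates are set side by side by rank. Signal values in the optimal list lay between 66.6 and 3161 (median 114). The strongest optimal promoter regions of the 15 Rab genes lay between 70.5 at Rab2 and 297 at Rab30, with a median of 128. Over all 3207 genes with such a region the median was 144, with quartiles of 96.8 and 239. Of the 15 Rab genes, 6 lay above the median of all genes. Rab30, Rab8 and Rab5 lay above the upper quartile, and Rab2, Rab14 and Rab32 below the lower one. The Rab promoters thus spread over all quartiles of the genes, and none came near the highest values. The Rab median was 0.890 times that of all genes in the optimal list, but 1.13 times in the strongest 5817 regions of replicate 1 alone and 1.32 times in those of replicate 2 alone, so its side of the median of all genes is not settled.

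**Figure D2:**
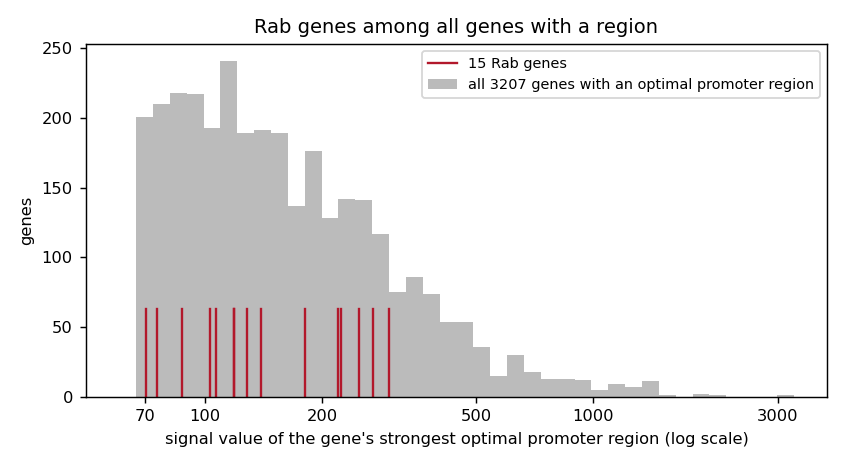
Histogram of the authors' signal value (x axis, log scale) of the strongest optimal promoter region of each gene, with the number of genes on the y axis. Red lines mark the 15 Rab genes, between 70.5 and 297, where Rab40 and Rab23 fall on 1 line at 119, and grey bars show all 3207 genes, which reach 3161.

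Among the Rabs of the endoplasmic reticulum, Golgi and secretion, 5 of 8 had an optimal region, with signal values from 70.5 to 297 and a median of 181. Rab30 (FBgn0031882), a Golgi Rab, had the strongest region of any Rab gene. In replicate 1 its region had a signal value of 135 and rank 1037, and in replicate 2 a signal value of 159 and rank 377. In the pooled list it had 297 and rank 573, at 2L 7032531 to 7032786, with the summit in intergenic sequence 46 bp upstream of the TSS. Both replicates placed it among their strongest regions, and more so replicate 2. A further optimal summit at Rab30, with a signal value of 114, lay 898 bp upstream. It was nearer to the TSS of the neighbour Caper, at 783 bp.

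Rab8 (FBgn0262518) acts in delivery of secretory vesicles to the plasma membrane. Its region had a signal value of 154 and rank 794 in replicate 1, and 108 and rank 865 in replicate 2. The pooled value was 271 at rank 708, at 3L 19870976 to 19871221, with the summit 1 bp from the TSS. The replicates gave it nearly the same place in their rankings.

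Rab1 (FBgn0285937) is needed for transport from the endoplasmic reticulum to the Golgi. Its region had a signal value of 108 and rank 1551 in replicate 1, and 77.5 and rank 1468 in replicate 2. The pooled value was 181 at rank 1459, at 3R 21269006 to 21269166, 50 bp upstream of the TSS. Here too the ranks of the replicates were close.

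The remaining members of this group with a region were weaker. Rab18, which acts at the endoplasmic reticulum and at lipid droplets, had 54.0 in replicate 1, 53.2 in replicate 2 and 106 pooled. Its summit lay 774 bp upstream of the Rab18 TSS, inside an intron of RpL35, a ribosomal protein gene, and 106 bp downstream of the RpL35 TSS. That region was therefore closer to the start of the neighbour than to that of Rab18. Replicate 1 had a stronger region, with 64.1 at rank 3620, 27 bp downstream of the Rab18 TSS, which replicate 2 and the pooled list did not have. Rab2, a Rab of the Golgi and of fusion with late endosomes, had 51.8 in replicate 1, 23.3 in replicate 2 and 70.5 pooled at rank 5415. Its pooled summit lay in a coding exon 176 bp downstream of the TSS, and that of replicate 2 in the same exon at 173 bp. In replicate 1 the summit lay 35 bp downstream, in the 5' untranslated sequence. The rank of 7387 in replicate 2 put Rab2 outside the strongest 5817 regions there.

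Rab6, Rab10 and Rab19 had no optimal promoter region. Rab6, a Rab of retrograde transport at the Golgi, had no region in any of the 4 lists, and its nearest optimal summit lay 4018 bp away. Rab10, which acts in polarised secretion, had a region in replicate 1 with a signal value of 44.9 and rank 5972, and none in replicate 2 or the pooled list. Rab19 had weak regions throughout, with 29.3 in replicate 1, 25.5 in replicate 2 and 54.1 at rank 7523 in the pooled list. The nearest optimal summit to Rab19 lay 2698 bp away and is in the promoter region that Arl5 shares with CG13671.

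**Figure D3:**
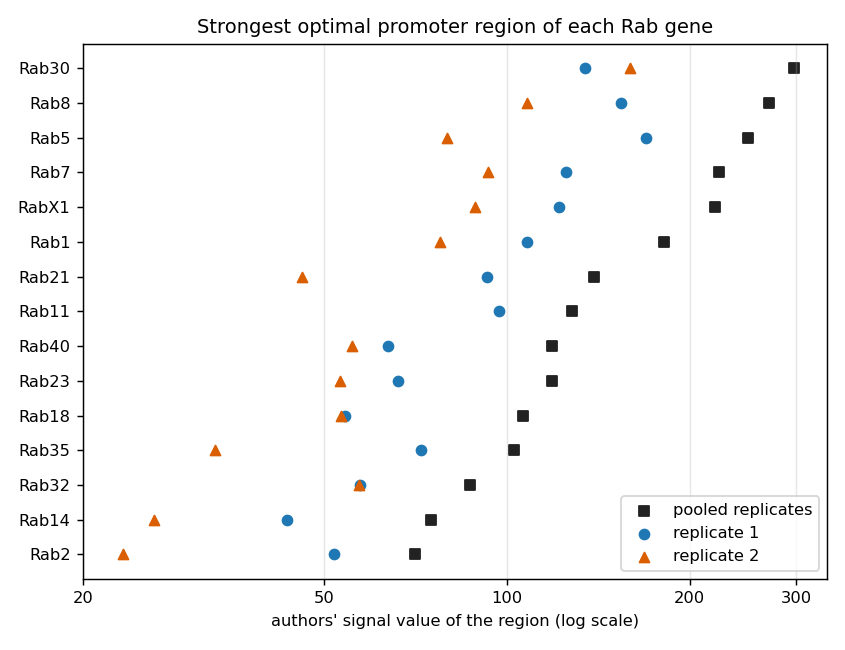
Authors' signal value (x axis, log scale) of the strongest optimal promoter region of the 15 Rab genes, ordered by the pooled value. Black squares are the pooled replicates, blue circles replicate 1 and orange triangles replicate 2. Rab30 has the highest pooled value at 297 and Rab2 the lowest at 70.5, and Rab11 has no triangle because replicate 2 listed no overlapping region.

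Of the Rabs of early and recycling endosomes, 5 of 6 had an optimal region, with signal values from 74.9 to 250 and a median of 128. Rab5 (FBgn0014010), which directs fusion of early endosomes, has 6 TSSs and had 3 optimal summits near them. The strongest region had a signal value of 170 and rank 646 in replicate 1, and 79.6 and rank 1414 in replicate 2. The pooled value was 250 at rank 856, at 2L 2362980 to 2363226, in an intron of Rab5 and 328 bp upstream of an internal TSS. The next region, at 2L 2363600 to 2363942, had a pooled signal value of 216 and lay 301 bp upstream of another TSS. Replicate 1 had 123 and rank 1228 there. Replicate 2 had 99.4 and rank 997 there, its strongest promoter region at Rab5, so the replicates differed in which of the regions was stronger. The weakest of the 3 had 103, with its summit 59 bp downstream of a TSS in the 5' untranslated sequence. All 3 regions therefore sat inside the gene at its alternative starts, and not at its outermost 5' end.

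Rab21 (FBgn0039966) acts in endocytosis of integrins. Its region had a signal value of 92.7 and rank 2009 in replicate 1, and 45.9 and rank 3115 in replicate 2. The pooled value was 139 at rank 2165, at X 23013398 to 23013497, with the summit 18 bp upstream of the TSS. As at Rab8 and Rab30, the summit was at the start of the gene, at a lower level.

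Rab11 (FBgn0015790), the Rab of recycling endosomes, rested on replicate 1. Its strongest region, at 3R 21111294 to 21111472 and 21 bp upstream of the TSS, had a signal value of 97.0 and rank 1857 in replicate 1 and 128 at rank 2446 in the pooled list. A second region 258 bp upstream had 90.8 in replicate 1 and 113 in the pooled list. Replicate 2 listed no region that overlapped either of them. The optimal status of Rab11 thus came without support from replicate 2, which does not show that replicate 2 had no signal there.

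Rab35, which acts in recycling to the plasma membrane, had 72.0 in replicate 1, 32.9 in replicate 2 and 103 pooled, 64 bp upstream of its TSS. Rab35 also had a weaker region downstream, at 750 bp with rank 5139 in replicate 1 and at 966 bp with rank 5701 in replicate 2, which at rank 7502 in the pooled list was not optimal. Rab14, an endosomal and phagosomal Rab, had 43.4 in replicate 1, 26.2 in replicate 2 and 74.9 pooled at rank 5042, at a summit in an intron 655 bp upstream of an internal TSS. Rab14 also had stronger regions that both replicates shared. They lay 537 bp downstream of the first TSS in replicate 1, with a signal value of 121 and rank 1270, and 540 bp downstream in replicate 2, with 85.3 and rank 1268. No promoter region of the pooled list, and so none of the optimal list, lay there, and the optimal value at Rab14 is from the weaker place. Over the genome, 4246 of the 5817 strongest regions of replicate 1 overlapped a strongest region of replicate 2, and 114 of these (2.68%) overlapped no optimal region. Rab4, a Rab of rapid recycling, had no region in any list, and its nearest optimal summit lay 4825 bp away.

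Of the 4 Rabs of late endosomes and lysosomes, Rab7 and Rab32 had an optimal region and Rab9 and Rab39 did not. Rab7 (FBgn0015795), which drives fusion with lysosomes and late steps of autophagy, had a signal value of 125 and rank 1193 in replicate 1, and 92.9 and rank 1107 in replicate 2. The pooled value was 223 at rank 1033, at 3R 23992869 to 23993101, 17 bp upstream of the TSS. The replicates ranked it alike. A second optimal summit, with a signal value of 110, lay 129 bp upstream of another Rab7 TSS. Rab32, known in the fly for pigment granules and lysosome-related organelles, had a pooled signal value of 87.0, 193 bp upstream of 1 of its 5 TSSs. Replicate 2 had 57.0 at rank 2320, 178 bp upstream. Replicate 1 had 57.2 at rank 4256, 50 bp downstream, and 26.7 at rank 11287, 208 bp upstream. The strongest regions of the replicates at Rab32 were thus at different places.

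Rab39, a Rab linked to lysosomes, was strong in each replicate and weak in the pooled list. Replicate 1 had a region 354 bp upstream of its TSS with a signal value of 106 and rank 1596, and replicate 2 had one 274 bp upstream with 95.8 and rank 1050. The pooled list gave 39.5 at rank 10752, with a summit 107 bp upstream, so Rab39 counted as having no optimal region. Its replicate ranks were close to those of Rab1 and Rab7. Both replicate summits were nearer to the TSS of Pdp, a gene on the opposite strand, at 82 bp in replicate 1 and 2 bp in replicate 2, than to that of Rab39. Rab9, which acts between late endosomes and the Golgi, had no region in any list, and its nearest optimal summit lay 7163 bp away.

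None of the 3 Rabs of regulated secretion had an optimal promoter region. Rab3, the Rab of synaptic vesicles, had weak regions with a signal value of 13.2 in replicate 1, 11.8 in replicate 2 and 18.2 at rank 25855 in the pooled list. An optimal summit with a signal value of 309 lay 1988 bp from its TSS, outside the window. That region is a promoter region of Daao1 and CG7220. Rab3 was thus the member closest to gaining a region under a wider window. Rab26, a Rab of secretory vesicles, had 29.2 in replicate 1, 15.2 in replicate 2 and 39.0 in the pooled list. In that order the summits lay 732, 414 and 569 bp upstream of its TSS. They were nearer to the TSS of Pc, on the opposite strand, at 22, 340 and 185 bp. Rab27, a Rab of secretory granules, had no region in any list, and its nearest optimal summit lay 100300 bp away.

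Both Rabs of the group of cilia, signalling and ubiquitin had regions of nearly equal level. Rab40, which carries a domain that recruits a ubiquitin ligase, had 63.6 in replicate 1, 55.5 in replicate 2 and 119 pooled, 27 bp upstream of its TSS. Rab23, which acts in planar cell polarity in the fly and in Hedgehog signalling and cilia in mammals, had 66.0 in replicate 1, 53.0 in replicate 2 and 119 pooled, 256 bp upstream. Replicate 2 gave both a better rank than replicate 1 did, 2412 against 3659 for Rab40 and 2580 against 3464 for Rab23.

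Of the 10 RabX and Rab9-like genes, RabX1 (FBgn0015372) alone had an optimal region. It had a signal value of 122 and rank 1252 in replicate 1, 88.4 and rank 1201 in replicate 2, and 221 at rank 1067 in the pooled list. The region lay at 2R 23522545 to 23522753 in an intron, 980 bp downstream of the TSS, and so just inside the window of 1000 bp. The value at RabX1 is thus near that of Rab7, but its summit is farther from the TSS than at any other Rab gene with a region.

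RabX2, RabX4, RabX5, RabX6, Rab9D, Rab9Db, Rab9E, Rab9Fa and Rab9Fb had no region in any list. For 4 of these genes the absence cannot be read from the lists. Sequences of 50 bases that occur more than once in the genome made up 49.4% of the TSS windows of Rab9Fa, 46.6% of those of Rab9Db, 45.4% of those of Rab9D and 43.8% of those of Rab9E. They made up 10% for RabX2 and 0.359% for Rab9Fb, and 0% for the other 30 Rab genes. Reads that lie wholly within such copies cannot be placed at 1 gene, and the sources used here do not say how they were treated.

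The 3 regulators that share the Rab name had no optimal region. Rab3GAP1 and Rab3-GAP encode the catalytic and the non-catalytic part of a complex known in mammals as the Rab3 GTPase-activating complex, and Rab3-GEF encodes an exchange factor. Rab3GAP1 had a region in replicate 2, with a signal value of 141 and rank 501, 162 bp upstream of its TSS, and none in replicate 1 or the pooled list. That rank is near the one of Rab30 in the same replicate, and replicate 1 gave it no support. The summit was nearer to the TSS of CG14352, a gene on the opposite strand, at 91 bp. Rab3-GEF had a weak region in replicate 2 with 15.5, and Rab3-GAP had none in any list. In all, 14 of the 36 genes had no promoter region in any of the 4 lists. The share of all genes without one in any list was not counted, so this number is not set against it.

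**Figure D4:**
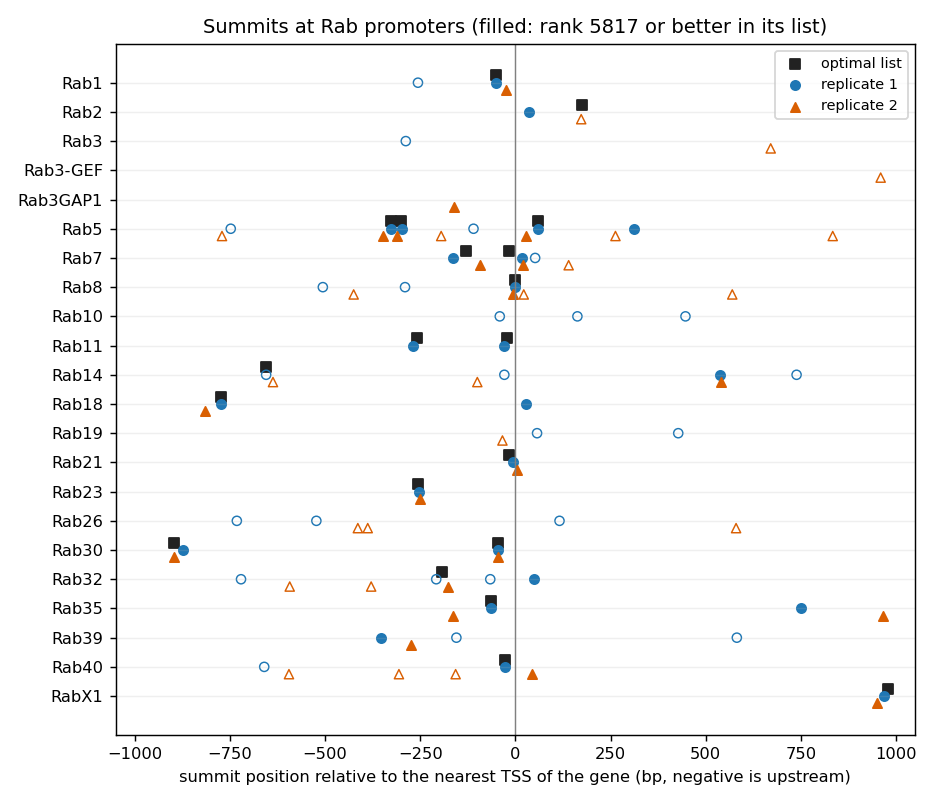
Position of each summit relative to the nearest TSS of its gene (x axis, bp, negative is upstream) for the 22 Rab genes with a promoter region in the optimal list or a replicate list. Black squares are the optimal list, blue circles replicate 1 and orange triangles replicate 2, and filled symbols have rank 5817 or better in their list. Filled symbols of both replicates without a black square stand at Rab39, at Rab14 near 540 bp downstream and at Rab35 at 750 and 966 bp downstream, and a filled triangle without a circle stands at Rab3GAP1.

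The distance of the region from the TSS varied among the 15 Rab genes, from 1 bp at Rab8 to 655 bp at Rab14, 774 bp at Rab18 and 980 bp at RabX1. The distance of the strongest summit had a median of 64 bp, against 161 bp over all 3207 genes. For 8 of the 15 (53.3%) it was within 100 bp, against 35.7% of all genes, and for 13 it was upstream, against 77.0% of all genes. Rab2 and RabX1 were the members with the summit downstream. At 4 genes (Rab5, Rab7, Rab11 and Rab30) there were several optimal promoter summits, a share close to the 24.7% of all genes. Of the 15 strongest regions, 12 (80.0%) overlapped the 5817 strongest regions of both replicates, against 77.3% of all genes, so replicate support at Rab genes was near that of other genes. The exceptions were Rab2, Rab11 and Rab14. Replicate 1 gave the better rank at 6 Rab genes and replicate 2 at 8, while replicate 1 gave the better rank at 46.0% of all genes.

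Regions shared with another gene were about as common at Rab genes as at all genes. At 9 of the 15 Rab genes (60%) the summit was also within 1000 bp of a TSS of another gene, against 54.4% of all genes. In 8 of these the neighbour runs in the opposite direction, with TSSs 61 to 668 bp apart. Rab8 shares its region with Usp32, a ubiquitin protease gene, whose TSS is 60 bp from the summit. Rab2 shares with Mob4, Rab21 with Coa7, a gene for assembly of cytochrome c oxidase, Rab7 with Epp, and Rab30 with Caper, a splicing factor gene. The pairs with Mob4, Coa7 and Epp have TSSs 78, 86 and 92 bp apart, and the TSS of Caper was 69 bp from the summit at Rab30. Rab40 shares with CG42258, 416 bp away, and Rab23 with plx, 421 bp away, which encodes a protein with the domain of Rab GTPase-activating proteins. The summit at Rab23 was nearer to plx, at 165 bp, than to Rab23, at 256 bp. Rab1 shares with AP-2sigma, a clathrin adaptor gene on the same strand, but 965 bp downstream of the TSS of AP-2sigma. For such regions the lists cannot say which gene of the pair the region belongs to.

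The share with a region also differed with the layout of the gene. With another TSS within 1000 bp, 11 of 19 Rab genes (57.9%) had an optimal region, against 32.0% of all such genes. With none, 4 of 17 Rab genes (23.5%) did, against 16.1% of all such genes. With several TSSs, 7 of 9 Rab genes (77.8%) had a region, against 41.0% of all such genes, and with a single TSS 8 of 27 (29.6%), against 16.5%. The Rab share was higher than that of all genes in each of these classes, and both moved in the same direction with the layout. On the X chromosome 4 of 14 Rab genes (28.6%) had a region, against 22.4% of all X genes. On the chromosome arms of 2 and 3, 11 of 22 Rab genes (50%) did, against 22.9% of all genes there. The Rab9-like genes with repeated sequence are all on the X chromosome.

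Both strands were searched for motifs up to 100 bp from the summits of the 20 optimal promoter regions at the 15 Rab genes and of all 3130 optimal promoter regions. The DRE, spelled TATCGATA, was present at 5 of the 20 Rab regions (25%), against 7.09% of all promoter regions. Each of the 5 was the strongest region of its gene, which makes 5 of 15 strongest regions (33.3%). These are the first 5 sequences printed above. The match began at the summit base itself in Rab7, 6 bp before it in Rab30, 10 bp after it in Rab8, 17 bp before it in Rab40 and 59 bp before it in Rab35. The centre of the DRE, ATCGAT, which lies inside it and was added after the sequences had been seen, was present at 9 of the 20 Rab regions (45%), against 17.1% of all promoter regions. Beyond the 5 genes with the whole DRE, these were both regions of Rab11 and those of Rab21 and Rab32. The DRE was thus near the summits of Rab30, Rab8 and Rab7, which are among the 4 strongest Rab regions, and of the weaker Rab40 and Rab35, and not of Rab5, RabX1 or Rab1. The regions of Rab30, Rab8, Rab7 and Rab40 are shared with Caper, Usp32, Epp and CG42258, in that order, and that of Rab35 is not shared. In the shared regions the DRE cannot be assigned to 1 gene of the pair.

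The Hnf4 site CAAAGTCCA was in none of the 20 Rab regions and in 0.958% of all promoter regions. The shorter AAGTCCA, which lies inside that site, was in none of the Rab regions and in 3.64% of all promoter regions. The direct repeat of nuclear receptor sites with ambiguous letters was in none of them and in 0.703%. The M1BP motif GGTCACAC, of another factor of broadly active promoters, was in none and in 3.55%. The GAGA motif GAGAGAG was in 1 Rab region, the strongest of Rab5 (5%), against 7.35%. The E-box CACGTG was in 1, the second of Rab5 (5%), against 2.49%. A motif without a match here says only that its letters are not in this window. The G and C content of the 15 strongest Rab regions had a median of 37.8%, the same as that of all promoter regions.

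**Figure D5:**
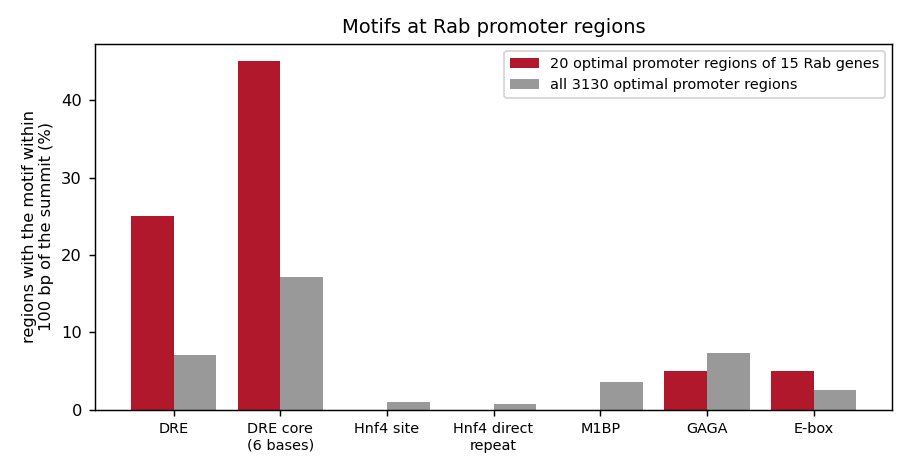
Percentage of regions (y axis) with each motif (x axis) within 100 bp of the summit. Red bars are the 20 optimal promoter regions of the 15 Rab genes and grey bars all 3130 optimal promoter regions. The DRE stands at 25% in red and 7.09% in grey, and its 6-base centre at 45% in red and 17.1% in grey.

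The promoters themselves, from 250 bp before to 50 bp after each TSS, held the DRE in 7 of the 15 Rab genes with a region and in 4 of the 21 without one. Over all genes it was in 16.3% of promoters of genes with a region and in 8.32% of those without. The share of Rab promoters with a DRE was thus above that of all genes both with and without a region. The Rab genes with a DRE and no region were Rab6, Rab19, Rab27 and RabX6, so a DRE at a Rab promoter did not always come with a region. M1BP matches were in 3 of 15 Rab promoters with a region (Rab5, Rab14 and Rab23) and in 2 of 21 without one (Rab4 and Rab6), against 12.1% and 7.68% over all genes.

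The proteins that load, unload and use Rabs were read in the same way. Of 27 further Rab regulators, 12 (44.4%) had an optimal promoter region, with a median signal value of 113. These 12 include plx, whose region is the one already counted for Rab23. Mon1 had 344 and Ccz1 had 299, which together form the exchange factor of Rab7. Their promoter regions were stronger than that of Rab7 itself, on the same scale. The region of Mon1 is shared with mRpS2, and that of Rab7 with Epp. The Rab5 exchange factor gene spri had 330 and the Rab GTPase-activating gene sky had 172. The gene ca, for a protein that acts with Rab32 in pigment granules, had none.

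Of 11 subunits of TRAPP, the tethering complex that activates Rab1 and Rab11, 3 had a region (27.3%), at Trs20 with 110, Bet3 with 93.0 and Trs23 with 91.0, and Bet5 and brun had none. Of 44 effectors and tethers, 11 had a region (25%), close to the share of all genes, with a median of 194. The strongest were Rbsn-5, a Rab5 effector gene, with 506, Vps33B with 448, Vps15, a subunit gene of the class III phosphatidylinositol kinase that acts with Rab5, with 251, and Mical with 222. Rbsn-5 had a higher value than any Rab gene. The regions of Rbsn-5, Vps33B, Vps15 and Mical are shared with PAPLA1, Fur1, CG8420 and CG3909, in that order. At Vps33B and Mical the summit is nearer to the TSS of the other gene. BicD, a motor adaptor that binds Rab6, and car, for a tether of lysosome fusion, had none.

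The Arf family of small GTPases, which act in coat assembly and in traffic at the Golgi and lysosomes, was read as well. In it 7 of 12 genes (58.3%) had a region, with a median of 103, at Arl1 with 370, Arl5 with 276, Arf1 with 103 and Arl8 between these last, and not at Arf6 or Arfrp1. The region of Arl1 is shared with brm, whose TSS is nearer to the summit, and that of Arl5 with CG13671. No difference between these lists and the Rabs was tested.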

How the data were processed

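The region lists are in narrowPeak format, per the deposited file descriptions. The authors gave every region an enrichment as its signal value, used here, and a −log10 q, deposited by the authors and read but not tested. Neither aligner nor peak caller is named in the sources used here. The 4 dm6 lists were used (optimal, pooled relaxed and 1 relaxed per replicate). The dm3 lists were not used here, and nothing was converted between builds. Depth is unknown, as the lists hold no read counts, and no interval was computed.

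Genes and 19643 TSSs came from Ensembl release 115, and coordinates are 1-based. Summits are the region's start plus the deposited offset. A region of a replicate was matched to an optimal region by an overlap of at least 1 bp, taking the highest signal value. The search was tested on planted summits. Python 3.11.15, numpy 2.4.6, pandas 2.3.3 and matplotlib 3.10.9 were used. With 1 group and no contrast, all counts and medians are descriptions and no p-value was computed.

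Rab genes, role groups and other lists were chosen with earlier results of these data known. All 36 genes are named, the 8 strongest in full. In other lists the 4 strongest and up to 2 without a region in alphabetical order are named. Also named are any gene that shares a Rab region and neighbours at some other regions. Listed names without a match (betaggt-II, TBC1D22, TBC1D7, TRAPPC2L, TRAPPC13, GMAP, cbs, TMF and EEA1) were left out. A further list and a gene that the rule gives are not reported here. Alternatives were other windows, the 5' end alone, overlap in place of summits, stricter sets, and each replicate alone.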

Additional observations from a re-analysis of the deposited data

How the results depend on the processing

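The number of Rab genes with an optimal promoter region was 10 to 16 over the alternatives, against 15. Role groups, motifs, distances, shared regions, gene layout and other lists were not rerun. A window of 500 bp gave 12 (without Rab14, Rab18 and RabX1), against 19.8% of all genes, and 2000 bp gave 16 (with Rab3), against 27.3%. The 5' end alone gave 13 (without Rab5 and Rab14), against 21.1%. Regions among the strongest of both replicates gave 12 (33.3%), against 17.9%, and over at least 50% of the peak 10 (27.8%), against 16.4%. The 50% of peaks with the highest signal value gave 10 (27.8%), against 14.8%. Without replicate 1 there were 15 (Rab39 and Rab3GAP1 in place of Rab2 and Rab11), against 24.2%, and without replicate 2 there were 16 (with Rab39), against 24.5%. The median signal value of the Rab genes, 128, moved to 160 with 2000 bp, where Rab3 (309) and a stronger value for Rab32 (345) enter. Both are promoter regions of neighbours, the first of Daao1 and CG7220 and the second of Rme-8. Sets that drop weak Rab regions gave 160 (strongest of both replicates) and 201 (overlap of at least 50%, and the strongest 50% of peaks). With 1 replicate left out it was 85.3 to 101, on each replicate's own scale. The ratio of the Rab median to that of all genes was 0.890, but 1.09 with 2000 bp, 1.23 with an overlap of at least 50% and 1.13 to 1.32 with 1 replicate left out, so whether the Rab median is below or above that of all genes depends on these choices, and the cause was not tested. Each interval taken once, an alternative added after seeing the data, left the count at 15. No paired analysis was possible because the samples form 1 group. The unknown depth limits what a missing region shows.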
